A study of Mus musculus with 6 samples.

Results

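Malat1 and Neat1 are long noncoding RNAs that stay in the nucleus, and their fragments were counted here in small RNA libraries of thymic Treg cells. Both genes were found in the per-sample count files by their Ensembl identifiers through GENCODE vM21 symbols, and they are 2 of the 54547 genes counted and 2 of the 5340 genes of the lincRNA class. Small RNA sequencing was performed on Treg cells sorted from thymi of 7-week-old mice, with 3 WT samples and 3 miR-181a/b-1-/- samples on a background labelled C5BL6/N. The miR-181a/b-1-/- mice lack the miR-181a-1 and miR-181b-1 hairpins in the germline, so every cell lineage of these mice carries the deletion. The methods give 3 pooled thymi for the sorted cells and 3 biological replicates per genotype. The comparison asked whether loss of miR-181a/b-1 altered the level of either RNA in Treg cells.

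Malat1 gathers in nuclear speckles, the bodies in which splicing factors are stored. Neat1 is the scaffold of paraspeckles, nuclear bodies built on the long form of this RNA by proteins such as SFPQ, NONO and PSPC1. Neither Malat1 nor the long form of Neat1 ends in a conventional poly(A) tail. RNase P cuts in front of a tRNA-like fold, the upstream RNA is then protected by a triple helix of U-rich and A-rich stretches, and the downstream piece is released as a small RNA, called mascRNA for Malat1.

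The sequences at these 3′ ends are shown because the annotation treats the pair differently there, which decides what a count on each gene can include. All coordinates and transcript sequences below come from GENCODE vM21 on GRCm38. Malat1 (ENSMUSG00000092341) lies on the minus strand at chr19:5795690-5802672, and its longest transcript is a single exon of 6983 bases. Neat1 (ENSMUSG00000092274) lies on the minus strand at chr19:5824708-5845478, and its longest transcript is a single exon of 20771 bases. A second Neat1 transcript of 3004 bases, in 2 exons, lies within the first part of the long one. The small RNA gene Gm27702 (ENSMUSG00000098865, 56 bases, chr19:5824652-5824707, minus strand) begins at the base that follows the end of Neat1. In the first pair of sequences, capitals mark the bases that are identical when the Malat1 element (chr19:5795928-5795981, minus strand) and Gm27702 are aligned, 39 of 54 alignment columns or 72.2%.
Malat1 tRNA-like element: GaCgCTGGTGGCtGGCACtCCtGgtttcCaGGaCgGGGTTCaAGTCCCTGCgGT
Gm27702: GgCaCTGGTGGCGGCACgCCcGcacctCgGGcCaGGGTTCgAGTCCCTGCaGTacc
Of 9091 lincRNA transcripts of at least 120 bases, 1 reached the alignment score of 60 against Gm27702, and it was the long Malat1 transcript. The best transcript of any other lincRNA gene scored 51. The element lies inside the annotated Malat1 exon, which runs on for 238 bases after it, so reads from it count as Malat1. Gm27702 lies outside the annotated Neat1, so reads from it never count as Neat1.

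The 120 bases upstream of each element are shown next, because they hold the stretches that pair in the triple helix. Capitals mark TTTTGCTTTT and its reverse complement AAAAGCAAAA, the longest run that both windows hold together with its reverse complement. The Malat1 window is chr19:5795982-5796101 and the Neat1 window is chr19:5824708-5824827, both on the minus strand.
Malat1 before the tRNA-like element: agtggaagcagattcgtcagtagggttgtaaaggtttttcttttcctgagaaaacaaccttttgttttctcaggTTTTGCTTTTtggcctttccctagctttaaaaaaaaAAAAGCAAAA
Neat1 3-prime end: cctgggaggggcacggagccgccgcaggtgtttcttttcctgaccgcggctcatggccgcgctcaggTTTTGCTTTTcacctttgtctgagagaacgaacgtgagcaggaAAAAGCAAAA
Each window held each motif 1 time. Among the last 120 bases of the 9091 lincRNA transcripts, 17 windows (0.187%) held either motif and 1 (0.0110%) held both. That 1 was the long Neat1 transcript, from whose window the motif was taken, so it had to hold both. The Malat1 window is not among these 9091, since the annotated Malat1 exon does not end at the cleavage site. The longest run shared by the long transcripts of Malat1 and Neat1 was 29 bases, and a read inside it would have no unique alignment.

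Between 168293 and 307840 counts per library fell on genes, and 75.7 to 80.3% of all records were given to no gene. Genes of the snoRNA class took 41.9 to 45.8% of the gene counts and protein-coding genes 21.1 to 26.8%. The deleted Mir181a-1 had 1 count, in WT replicate 2, and Mir181b-1 had 0 counts in all 6 libraries, so the genotype could not be checked from these files. Of the 10 Treg markers listed, all had a count, with Foxp3 at 23 to 26 counts in WT and 17 to 39 in miR-181a/b-1-/- libraries, and Ctla4 at 1 count in all. Erythroid markers had 0 counts throughout, myeloid markers 0 in WT and 0 to 4 in miR-181a/b-1-/- libraries, and B cell markers 32.8 to 58.6 CPM in WT and 22.7 to 53.5 in miR-181a/b-1-/- libraries. CPM are counts scaled to a total of 1000000 gene counts per library. Of 7 B cell markers 4 had a count, chiefly Ighm (12, 9 and 8 in WT, 7, 8 and 5 in miR-181a/b-1-/- libraries) with 6 counts of Cd79b, while Cd79a and Ms4a1 were at 0 in every library. The part of these cells in the Malat1 and Neat1 counts was not tested. In sorted bulk samples, fewer cells of a type and less RNA per cell cannot be told apart.

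Malat1 was one of the most counted long RNAs of these libraries. Its 3568 counts over the 6 libraries ranked 46th among the 16588 genes with a count, and 3 protein-coding genes had more. These were Rpl7a (11897 counts) and Rps14 (4826 counts), which encode ribosomal proteins, and Snrpb (6855 counts), which encodes a core protein of the spliceosome. Introns of such genes can host snoRNAs, and the counts do not say where along a gene the fragments lay. Actb, the next protein-coding gene, had 3446 counts.

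Neat1 was sparse by comparison. Its 43 counts ranked 1737th among genes with a count, above the median of 8 counts for protein-coding genes with a count. Per length the gap was wider, because Neat1 is the longer transcript. Malat1 averaged 376 and Neat1 1.56 CPM of gene counts per kb of exon. Both values spread the counts over the whole annotated exon, although the position of the fragments is not known. Were the Neat1 counts to come from its form of 3004 bases alone, its value would be higher.

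Among lincRNA genes, 616 of 5340 had a count. Gm42418 alone took 88.4% of all lincRNA counts and 3.64 to 4.78% of gene counts, so it was left out of the lincRNA totals used below. Of the remaining lincRNA counts, Malat1 took 46.7%, the neighbouring chromosome 17 gene Gm26917 took 11.9%, Gm10076 2.49% and Gm3143 1.88%. Neat1 took 0.563%. By level per length Malat1 was 2nd of the lincRNA genes, behind Gm42418 (23225 CPM per kb) and level with Gm10076 (372). Neat1 was 19th by counts and 133rd by level per length.

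**Figure D1:**
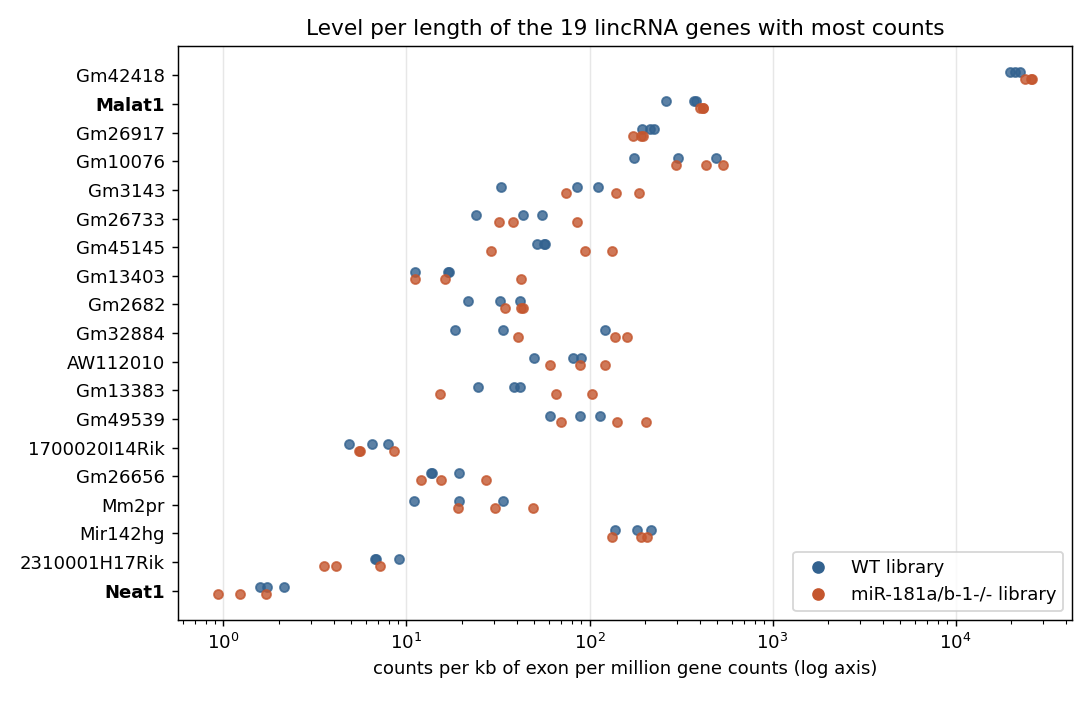
Level of the 19 lincRNA genes with most counts, in CPM of gene counts per kb of exon on a log axis, with 1 point per library (blue WT, orange miR-181a/b-1-/-) and genes ordered by total count from the top. Malat1 lies near 376 and Neat1, at the bottom, near 1.56, and the points of several other genes, such as Gm32884, spread widely within a genotype.

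The share of Malat1 in all gene counts was higher in the miR-181a/b-1-/- libraries, but the groups overlapped after normalization and the difference did not pass the test. Malat1 had 406, 595 and 637 counts in WT replicates 1, 2 and 3. The miR-181a/b-1-/- libraries held 492, 571 and 867 counts, in the same order of replicates. The most counts came from the deepest library, and the fewest from WT replicate 1, which was deeper than miR-181a/b-1-/- replicates 1 and 2.

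As a share of gene counts, Malat1 made up 0.183% (95% Wilson interval 0.166 to 0.202), 0.265% (0.245 to 0.287) and 0.261% (0.242 to 0.283) in the WT libraries. It made up 0.292% (0.268 to 0.319), 0.293% (0.270 to 0.318) and 0.282% (0.264 to 0.301) in the miR-181a/b-1-/- libraries. WT replicate 1 stood below all others, with an interval that met none of theirs, and the 3 miR-181a/b-1-/- libraries lay close together. These intervals cover counting error only and may be too narrow for it. They treat reads as independent, and amplified reads without molecular identifiers are not independent molecules.

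The share averaged 0.236% ± 0.0464 (SD, n = 3) over WT libraries and 0.289% ± 0.00630 (SD, n = 3) over miR-181a/b-1-/- libraries, a ratio of 1.22. Every miR-181a/b-1-/- library exceeded every WT library, with p = 0.1 by a two-sided exact permutation test, and 0.1 is the smallest p that 3 against 3 can give. Of the 1391 genes that passed the count filter, 2.66% showed the same separation upward on this scale. Without WT replicate 1 the difference in share fell from 0.0525 to 0.0257 percentage points. The groups overlapped when the total was protein-coding and lincRNA counts without Gm42418 (0.968% ± 0.202 and 1.18% ± 0.113, SD, n = 3, exact permutation p = 0.3) or all records of the library (0.0553% and 0.0634%, exact permutation p = 0.4).

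**Figure D2:**
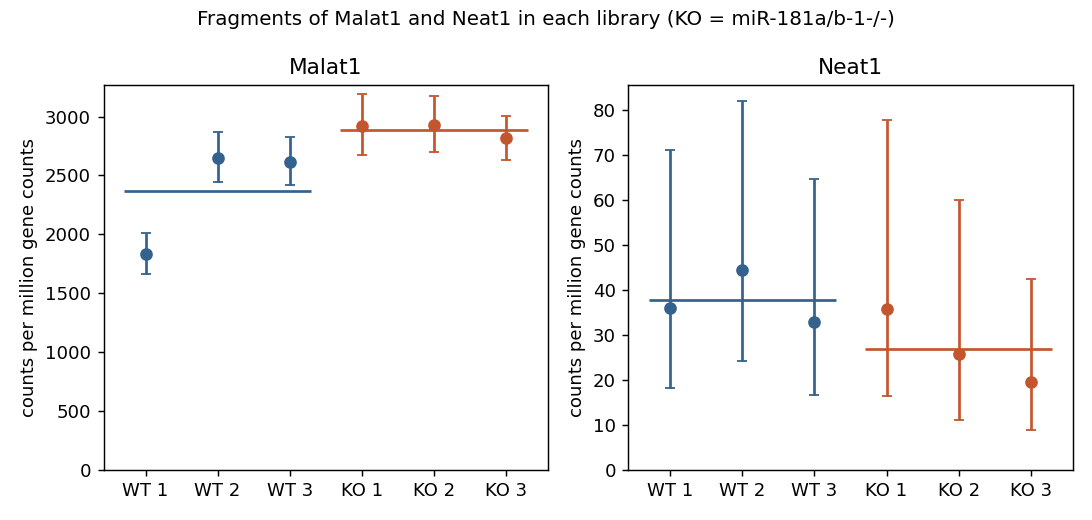
Malat1 (left) and Neat1 (right) in each library, in CPM of gene counts from 0 upward, with 95% Wilson intervals as bars and group means as horizontal lines (blue WT, orange miR-181a/b-1-/-, labelled KO). WT replicate 1 is lowest for Malat1, and the intervals of all 6 Neat1 points overlap.

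After TMM normalization, which rescales each library by the bulk of its genes, Malat1 stood at 2021, 3024 and 2871 CPM in WT libraries. It stood at 2967, 3219 and 3557 in miR-181a/b-1-/- libraries. The groups now overlapped, with miR-181a/b-1-/- replicate 1 below WT replicate 2. The WT mean was 2638 ± 540 (SD, n = 3) and the miR-181a/b-1-/- mean was 3248 ± 296 (SD, n = 3).

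In the edgeR quasi-likelihood fit over the 1391 genes, Malat1 had a log2 fold change of 0.30 (SE 0.24, 95% interval -0.20 to 0.80, Benjamini-Hochberg adjusted p = 0.980). The interval takes in no change as well as a rise of 0.80 on the log2 scale. In this comparison 0 genes passed an adjusted p of 0.05 (0% of those tested in either direction), with 35 higher (2.52%) and 37 lower (2.66%) at an unadjusted p under 0.05. DESeq2 on the same genes also called 0, with 24 at an unadjusted p under 0.05. Malat1 ranked 297th by p, and the median log2 fold change of all 1391 genes was -0.00.

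WT replicate 1 decided much of the Malat1 value. Without it the log2 fold change was 0.11 (adjusted p = 0.999 by edgeR), and over the 6 fits with 1 library removed it ran from 0.11 to 0.40. All of them were positive and none was called.

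**Figure D3:**
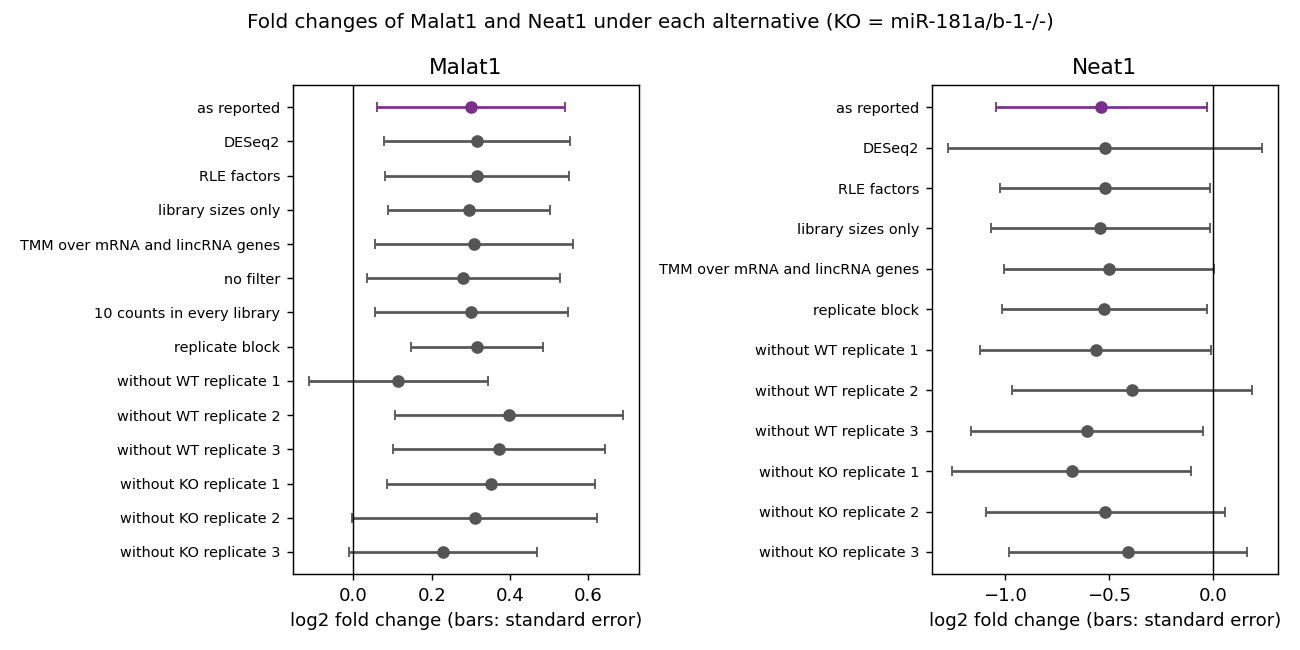
Log2 fold changes, miR-181a/b-1-/- against WT, of Malat1 (left) and Neat1 (right) as reported (purple) and under each alternative (grey), with standard errors as bars and a vertical line at 0. Malat1 values run from 0.11 to 0.40 and Neat1 values from -0.68 to -0.39, so each gene kept its sign.

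As a share of lincRNA counts, its own included and Gm42418 left out, Malat1 did not separate the genotypes. It made up 40.6% (37.6 to 43.7), 48.5% (45.7 to 51.2) and 48.4% (45.7 to 51.1) of these counts in WT libraries. It made up 53.0% (49.7 to 56.2), 47.0% (44.2 to 49.8) and 44.4% (42.2 to 46.6) in miR-181a/b-1-/- libraries. The highest and the second lowest share both came from miR-181a/b-1-/- libraries, and the groups overlapped.

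The means of 45.8% ± 4.51 (SD, n = 3) and 48.1% ± 4.41 (SD, n = 3) differed by less than the spread between replicates (p = 0.6, two-sided exact permutation test). The sign of this difference turned when WT replicate 1 was left out (-0.314 percentage points), and likewise for miR-181a/b-1-/- replicate 1 (-0.143). Other lincRNA counts, taken without Malat1 and Gm42418, were 0.268, 0.282 and 0.279% of gene counts in WT and 0.260, 0.331 and 0.353% in miR-181a/b-1-/- libraries (p = 0.4, two-sided exact permutation test).

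Of the 18 lincRNA genes that passed the filter, 16 had log2 fold changes above 0, and their median was 0.35 beside -0.00 over all genes tested. Malat1 at 0.30 lay below that median, close to Gm42418 at 0.28. The exceptions were Gm26917 at -0.16 and 2310001H17Rik at -0.48. The largest values belonged to genes with few counts, such as Gm32884 (1.06, SE 0.49, 3 to 31 counts per library), and the adjusted p of Gm3143 (log2 fold change 0.89), the lowest of these genes, was 0.896. Many of these genes stood highest in miR-181a/b-1-/- replicate 3, which held the highest normalized level of 11 of the 18, such as Gm13403 with 48 counts there and 8 to 14 elsewhere. miR-181a/b-1-/- replicate 1 lay below the WT mean for 12 of the 18. Without miR-181a/b-1-/- replicate 3, a choice made after seeing the data, 13 of the 18 lay above 0 and the median was 0.19, beside -0.02 for all genes tested.

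**Figure D4:**
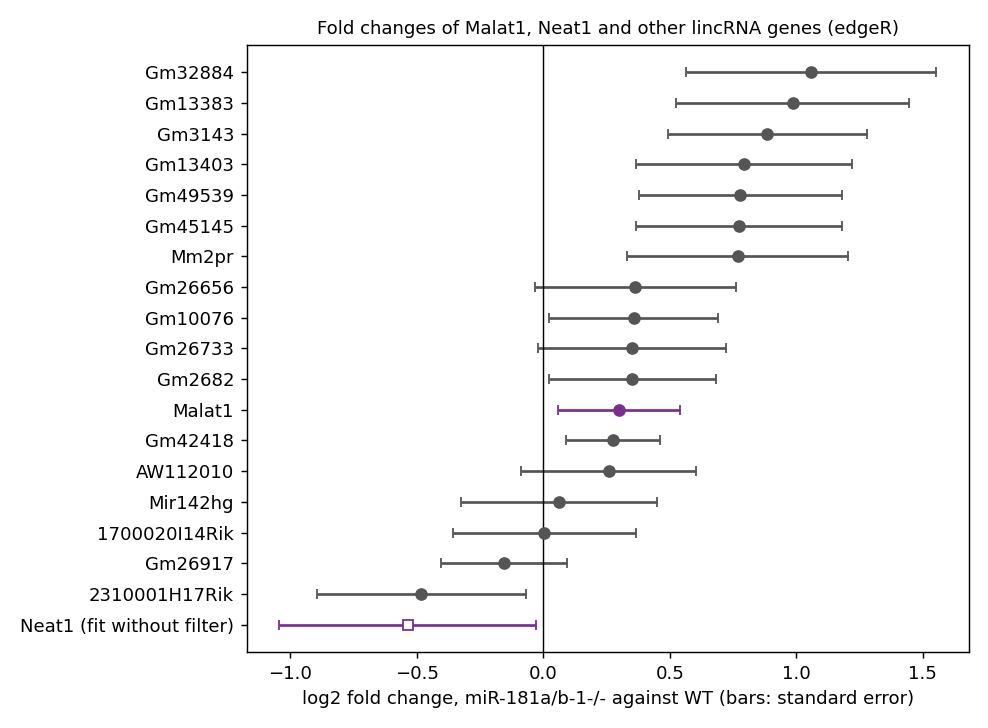
Log2 fold changes, miR-181a/b-1-/- against WT, of the 18 lincRNA genes that passed the filter and of Neat1 from the fit without a filter (open square), with standard errors as bars. Malat1 (0.30) and Neat1 (-0.54) are in purple, and 16 of the 18 filtered genes lie right of 0.

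Neat1 went the other way, at few counts and without a call. It had 8, 10 and 8 counts in WT replicates 1 to 3, and miR-181a/b-1-/- replicates 1 to 3 held 6, 5 and 6 counts. All 3 miR-181a/b-1-/- counts lay below all WT counts, as they did for 2.08% of the 16588 genes with a count. Many of these genes had few counts (median 8 over the 6 libraries for protein-coding genes), where ties make such a separation less likely. Raw counts take no account of depth.

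In CPM of gene counts, Neat1 stood at 36.0, 44.5 and 32.8 in WT and 35.7, 25.6 and 19.5 in miR-181a/b-1-/- libraries. On this scale miR-181a/b-1-/- replicate 1 lay within the WT range. The 95% Wilson intervals reached from 16.3 to 77.8 CPM in that library, and all 6 intervals overlapped.

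As a share of gene counts, Neat1 averaged 0.00378% ± 0.000604 (SD, n = 3) over WT libraries and 0.00269% ± 0.000816 (SD, n = 3) over miR-181a/b-1-/- libraries, a ratio of 0.712 (p = 0.2, two-sided exact permutation test). Of protein-coding and lincRNA counts without Gm42418 it averaged 0.0155% and 0.0107%, without overlap (p = 0.1, exact permutation test, the smallest possible). How many other genes separated on this scale was not counted. Of all records Neat1 averaged 0.000881% and 0.000602%, with overlap (p = 0.3, exact permutation test). Of lincRNA counts it made up 0.800, 0.814 and 0.607% in WT and 0.646, 0.411 and 0.307% in miR-181a/b-1-/- libraries (p = 0.2, two-sided exact permutation test). miR-181a/b-1-/- replicate 1 again overlapped WT replicate 3.

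Neat1 did not pass the filter of 10 counts in 3 libraries, with 1 library at 10, so its fitted value comes from edgeR without a filter over all 16588 genes. TMM-normalized CPM were 35.1, 45.8 and 33.1 in WT and 31.9, 25.1 and 22.1 in miR-181a/b-1-/- libraries, without overlap. Of the 16588 genes, many of them with few counts, 2.88% showed the same separation downward. The log2 fold change was -0.54 (SE 0.51, 95% interval -1.53 to 0.46, adjusted p = 0.734), in a fit that called 7 genes higher (0.0422%) and 1 lower (0.00603%). Both a marked fall and a modest rise lay inside the interval. Without WT replicate 2, its highest library, the value was -0.39.

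The ratio of Malat1 to Neat1 counts, in which library size cancels, was higher in the miR-181a/b-1-/- libraries. It was 50.8, 59.5 and 79.6 in WT libraries. It was 82.0, 114.2 and 144.5 in miR-181a/b-1-/- libraries. The groups did not overlap, but WT replicate 3 and miR-181a/b-1-/- replicate 1 were close, and their 95% intervals (40.2 to 157.8 and 37.4 to 179.7) covered nearly the same range. Of the 1391 filtered genes, 19.7% showed the same separation upward when their counts were divided by those of Neat1, so the separation was common to many genes set against Neat1.

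On the log2 scale the ratio was 5.96 ± 0.33 (SD, n = 3) over WT libraries and 6.79 ± 0.41 (SD, n = 3) over miR-181a/b-1-/- libraries, which is 0.83 higher (p = 0.1, two-sided exact permutation test, the smallest possible). The ratio carries the counting error of the 5 to 10 Neat1 counts in each library.

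Gm27702, whose sequence is printed above beside the Malat1 element, had 2, 4 and 1 counts in WT libraries and 0, 0 and 10 in miR-181a/b-1-/- libraries. The 2 libraries at 0 allow a share of up to 0.00178% and 0.00154% of gene counts, the share of 3 counts. The 10 counts of replicate 3 were 0.00325% (95% Wilson interval 0.00176 to 0.00598). The libraries of 1 genotype therefore differed more from each other than the genotypes did, and the edgeR fit without a filter gave a log2 fold change of 0.49 (SE 0.81, adjusted p = 0.853).

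Adding Gm27702 to Neat1, a choice made after seeing the data that brings its counting closer to that of Malat1, gave 10, 14 and 9 counts in WT and 6, 5 and 16 in miR-181a/b-1-/- libraries. Malat1 counts per such count were then 40.6, 42.5 and 70.8 in WT and 82.0, 114.2 and 54.2 in miR-181a/b-1-/- libraries. The groups overlapped through miR-181a/b-1-/- replicate 3 alone, with its 10 counts of Gm27702. The mean log2 ratio was still 0.68 higher in miR-181a/b-1-/- libraries (p = 0.2, two-sided exact permutation test), beside 0.83 without Gm27702.

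Around the pair on chromosome 19, the annotation lists 32 further genes within 200 kb, of which 23 had a count and 0 passed the filter. Gm27702 is among them. Inside Malat1 lie Gm27694, at 0 counts, and Gm37376 on the opposite strand, at 1 count in WT replicate 3. Inside Neat1 lie Gm27533, Gm27505 and Gm28006, all at 0 counts. Reads that matched more than 1 gene were set aside as ambiguous, 20.4 to 24.0% of all records per library. Gm27694 and the genes inside Neat1 lie within the exon of their host and on its strand, so reads from them could only be ambiguous. Their 0 counts therefore do not measure their level. Whether counting used the strand is not given in the sources used here. Without the strand, reads within Gm37376 would be ambiguous too on this annotation, and it had 1 count.

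The neighbours summed to 39 to 44 counts in WT and 32 to 60 in miR-181a/b-1-/- libraries, or 176 to 196 and 174 to 195 CPM of gene counts. Frmd8, the nearest protein-coding gene upstream of Neat1, had 6, 11 and 9 counts in WT and 2, 4 and 6 in miR-181a/b-1-/- libraries. Sipa1, an inhibitor of Rap GTPases, had 7, 5 and 5 and 3, 3 and 2 counts, and Capn1, a calcium-dependent protease, had 3, 1 and 2 and 5, 5 and 7 counts. These counts went in different directions and were too few for the test.

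**Figure D5:**
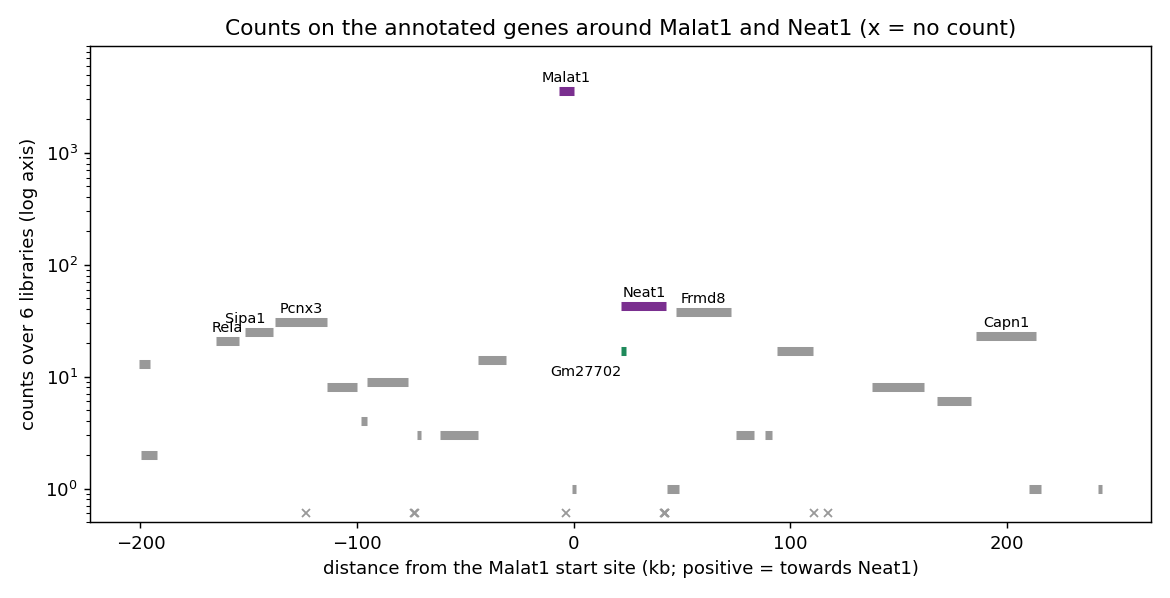
Counts over the 6 libraries (log axis) on each annotated gene around Malat1 and Neat1, drawn over the gene's span in kb from the Malat1 start site (spans under 2 kb are drawn 2 kb wide, and crosses mark genes with no count). Malat1 stands at 3568 counts, Neat1 at 43, Gm27702 (green) at 17, and every other neighbour at 38 or fewer.

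Of 22 paraspeckle protein genes, all had a count and 5 passed the filter, 3 with a positive and 2 with a negative log2 fold change (median 0.35, beside -0.00 for all genes tested), and 0 passed the adjusted test. Sfpq, which encodes an RNA-binding protein that Neat1 recruits, had 19, 18 and 17 counts in WT and 24, 24 and 26 in miR-181a/b-1-/- libraries. Its log2 fold change was 0.54 (SE 0.30, adjusted p = 0.974 by edgeR), a difference that was not called. Matr3 (0.35), which encodes a nuclear matrix protein, and Hnrnpr (0.50) had positive log2 fold changes, and Hnrnpk (-0.48), an hnRNP gene like Hnrnpr, had a negative one. Of the other core scaffold partners, Nono had 34 and Pspc1 21 counts in all, too few for the test.

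Of 22 genes for nuclear speckle and SR splicing proteins, 21 had a count and 10 passed the filter, 5 in each direction, with a median log2 fold change of 0.02. Son (0.20, 48 to 58 counts per library) and Srrm2 (0.18, 45 to 58 counts), which encode the scaffold proteins of nuclear speckles, lay near 0. U2af2, which encodes a subunit of the factor that recognizes 3′ splice sites, had -0.20, and Acin1 had 0.19. The lowest adjusted p of the 10 was 0.980.

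Of 15 genes for the 3′ processing of these RNAs, all had a count and only Rpph1, the RNA subunit of RNase P, passed the filter. Rpph1 had 253, 289 and 456 counts in WT and 247, 264 and 636 in miR-181a/b-1-/- libraries, and its log2 fold change was 0.23 (SE 0.27, adjusted p = 0.980 by edgeR). Elac2, the nuclease that trims tRNA 3′ ends, had 11 counts in all, and Mettl16, which binds the Malat1 triple helix, had 17.

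Of 16 other nuclear lncRNAs listed, 14 were in the files, 10 had a count and 1 passed the filter. That gene was Kcnq1ot1, the antisense RNA of an imprinted cluster, with 16, 17 and 24 counts in WT and 13, 25 and 43 in miR-181a/b-1-/- libraries (edgeR: 0.55 on the log2 scale, SE 0.33, adjusted p = 0.980 by edgeR). Airn had 26, Tug1 19 and Dleu2 18 counts over the 6 libraries. Meg3, Rian, Mirg and Firre had 0, so Malat1 stood far above each of these RNAs in counts, whereas Neat1 did not.

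Of the 10 Treg markers, 9 passed the filter, 2 with a positive and 7 with a negative log2 fold change (median -0.23, none called). The best counted were Ikzf2 (0.21), a Treg transcription factor, the IL-2 receptor genes Il2rb (-0.23) and Il2ra (-0.35), and Gpr83 (-0.44). Of the double-positive thymocyte markers only Cd4, which Treg cells also express, passed the filter (-0.33). Of the 10, 7 had a count, among them Themis with 36, Cd8b1 with 10, Cd8a with 3 and Rag1 with 2, the last pair found only in miR-181a/b-1-/- libraries. The list summed to 148 to 167 CPM in WT and 143 to 202 CPM in miR-181a/b-1-/- libraries, and its part in the Malat1 and Neat1 values was not tested. Of 6 mature T cell markers, 5 passed, 1 with a positive and 4 with a negative log2 fold change (median -0.06), with Klf2 at -0.29, Ccr7 at -0.06 and S1pr1 at -0.12.

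Likeness over the 6 libraries was measured as Pearson's r of log2 CPM, given as a description over libraries that share depth and genotype. Among the genes most like Malat1 were Cxcr4 (0.97), Eif3m (0.97), Gm24620 (0.96) and Rps13 (0.96), and 20 of 1390 genes exceeded 0.9. Rps13, which encodes a ribosomal protein, had 38, 54 and 63 counts in WT and 48, 65 and 92 in miR-181a/b-1-/- libraries, fewest in WT replicate 1 as Malat1 was. The 5 most like Neat1 were Nub1 (0.94), Sdf4 (0.93), Nfkbia (0.92), Ccar1 (0.91) and Ucp2 (0.90), and 7 of 1391 exceeded 0.9. Nub1 had 11, 17 and 11 counts in WT and 4, 3 and 4 in miR-181a/b-1-/- libraries (edgeR: -1.72 on the log2 scale, adjusted p = 0.371 by edgeR). The r between Malat1 and Neat1 themselves was -0.446.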

How the data were processed

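The authors deposited 1 table of counts per sample, with whole numbers of reads per Ensembl gene and no normalization. According to their methods, HTSeq counts were made from STAR alignments, after adapter trimming and a Bowtie 2 step that took out ribosomal RNA. The submitters' processing notes give the build GRCm38.p6, and the annotation release and strand setting are not given in the sources used here. Of 54547 identifiers, 53706 matched GENCODE vM21 without the version number and 51550 with it, and Malat1 and Neat1 differed from vM21 in version, so lengths and coordinates are those of vM21. Records given to no gene (75.7 to 80.3% per library) were left out of totals. A further deposited table holds the authors' own miRNA comparison and was not used.

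Shares of gene counts, and of lincRNA counts without Gm42418, were compared with exact two-sided permutation tests of the group means. Genes with at least 10 counts in at least 3 libraries were tested with edgeR 4.0.16 (R 4.3.3, TMM, quasi-likelihood, Benjamini-Hochberg, adjusted p 0.05), with DESeq2 1.42.0 as an alternative. Likeness used log2 CPM with a prior count of 2. Sequences were aligned with Biopython 1.88 (match 2, mismatch -1, gap opening -4, gap extension -1), the highest local score over each transcript being kept. The edgeR step was tested on simulated data of 1391 genes with 200 changed: it recovered 43% of changes of 2-fold (7 false calls) and 93% of 4-fold (12 false calls), and called 0 genes when none was changed.

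Genes named are Malat1 and Neat1, the 5 lincRNA genes with most counts, genes within 200 kb, up to 4 of the best counted tested members of each list, and the 5 genes most like each RNA, of which a few are not reported here. Other names, such as Foxp3, Nono, Gm32884 and the genes at 0 counts, were chosen after their values were seen. The members and lists were chosen with earlier results of these data known. Labels and methods give thymus as the source, and the study's text also speaks of peripheral cells.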

Additional observations from a re-analysis of the deposited data

How the results depend on the processing

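The count of genes at an adjusted p of 0.05 was 0 in each direction by edgeR with the filter, by DESeq2, and with other scaling. Without a filter 7 of 16588 genes were higher and 1 was lower. Leaving out 1 library gave 0 to 5 higher and 0 to 1 lower, with 5 higher without miR-181a/b-1-/- replicate 1, and 3 higher and 1 lower without miR-181a/b-1-/- replicate 3. The cause was not tested. Malat1 was called in none of these fits, and Neat1, tested only in fits without a filter, in none of those. The Malat1 log2 fold change kept its sign in 13 alternatives (0.11 to 0.40, adjusted p 0.734 to 0.999997), and that of Neat1 in 11 (-0.68 to -0.39, adjusted p 0.727 to 0.999). A filter of 10 counts in every library could not give a Neat1 value. The difference in the Malat1 share of lincRNA counts ran from -0.314 to 4.15 percentage points with 1 library left out, and was -0.314 without WT replicate 1, and -0.143 when miR-181a/b-1-/- replicate 1 was dropped.

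Same-numbered samples of the genotypes deviated together with correlations of 0.231, 0.0812 and 0.182 and each correlated best with its own number, but 1 was below 0.1 and the labels give no shared origin. With the replicate number as a block, Malat1 had a log2 fold change of 0.32 (SE 0.17, adjusted p = 0.785 by edgeR) and Neat1 -0.52 (adjusted p = 0.999), 0 genes were called, and the smallest p of a sign-flip test over 3 pairs is 0.25. The block changed no call. Each Neat1 value rests on 5 to 10 counts per library.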
